A study of Mus musculus with 8 samples.

Results

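The genes that make, store, take up and break down histamine and serotonin were followed in cultured mouse mast cells with and without targeting of Mettl3. The 8 genes, of 56748 gene identifiers in the count tables, were listed by function and not by their values: Hdc, Tph1 and Ddc (synthesis), Slc18a2 (vesicular storage), Slc6a4 (uptake), and Maob, Maoa and Hnmt (breakdown). Bone marrow-derived mast cells (BMMCs) of 4 mice had been transfected with Mettl3 RNPs, ribonucleoproteins of the Cas9 nuclease and guide RNAs (Mettl3-RNP, labelled Mettl3 KO, n = 4), or pulsed without RNPs (Pulsed, n = 4). By the protocols, the donors were young adult C57BL/6 mice, the cells were grown in IL-3 and were not stimulated, and RNA was taken from whole transfected cultures in which most but not all Mettl3 protein had been lost. The Mettl3-RNP cultures are therefore mixtures, and the Pulsed cells received the electric pulse but neither Cas9 nor a control guide. Each gene was measured by mRNA sequencing as a count of reads, which in bulk RNA cannot tell fewer expressing cells from less RNA per cell.

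Mast cells keep amines ready-made in their secretory granules and release them within minutes when the IgE receptor is crosslinked. Histamine is made in a single step from histidine by histidine decarboxylase (Hdc), and serotonin from tryptophan by tryptophan hydroxylase (Tph1) followed by aromatic amino acid decarboxylase (Ddc). The vesicular monoamine transporter VMAT2 (Slc18a2) loads both amines into granules in exchange for protons, the plasma membrane transporter SERT (Slc6a4) brings serotonin back into cells, and the monoamine oxidases (Maoa, Maob) and histamine N-methyltransferase (Hnmt) inactivate amines in the cell. Rodent mast cells are known to store serotonin beside histamine.

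Of the 8 genes, 7 had a promoter entry in the RefSeq promoter table, with 9 promoters in all, each running from 250 bases before to 50 bases after an annotated start. The 3 shown here belong to the enzyme specific to histamine, the enzyme specific to serotonin and the transporter that loads both, whose transcripts varied in different ways between the cultures. Each was placed in the mouse genome build GRCm39 by an exact match. The Hdc promoter lies at chr2:126460549-126460848 on the minus strand, that of Tph1 at chr7:46316752-46317051 on the minus strand, and that of Slc18a2 at chr19:59249060-59249359 on the plus strand. Capitals mark the letters found by a search on both strands for 6 kinds of word. These were GATA words (the letters GATA with an A or T just before and an A or G just after), the E-box CATGTG or its variant CACGTG, the cyclic AMP response element TGACGTCA, the GC box GGGCGG, the CCAAT box, and the TATA box as TATAAA. No matches shown overlap.
Hdc: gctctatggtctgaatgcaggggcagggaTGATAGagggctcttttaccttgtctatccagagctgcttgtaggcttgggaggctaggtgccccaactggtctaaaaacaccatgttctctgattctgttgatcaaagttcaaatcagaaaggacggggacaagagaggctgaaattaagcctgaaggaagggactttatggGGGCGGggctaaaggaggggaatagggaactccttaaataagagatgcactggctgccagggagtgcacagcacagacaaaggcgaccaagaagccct
Tph1: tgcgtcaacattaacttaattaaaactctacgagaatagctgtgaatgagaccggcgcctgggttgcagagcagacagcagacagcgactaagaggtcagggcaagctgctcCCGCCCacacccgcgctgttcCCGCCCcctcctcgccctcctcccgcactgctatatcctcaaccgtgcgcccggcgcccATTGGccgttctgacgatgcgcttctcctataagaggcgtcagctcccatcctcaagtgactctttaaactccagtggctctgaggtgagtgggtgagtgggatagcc
Slc18a2: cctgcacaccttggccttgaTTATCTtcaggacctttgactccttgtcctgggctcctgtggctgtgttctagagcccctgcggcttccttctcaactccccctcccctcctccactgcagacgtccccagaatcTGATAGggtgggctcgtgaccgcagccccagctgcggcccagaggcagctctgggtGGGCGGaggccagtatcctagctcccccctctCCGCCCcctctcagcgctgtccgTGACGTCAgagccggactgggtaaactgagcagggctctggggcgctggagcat
The Hdc promoter held a GATA word at position -221 and a GC box at -48, counted from the start site. The Tph1 promoter shown, the nearer of its 2 entries to the canonical start, held GC boxes at -138 and -117 and a CCAAT box at -58. Its other entry, not shown, held a GATA word at -236. That of Slc18a2 held GATA words at -230 and -115, GC boxes at -59 and -27, and the letters TGACGTCA from -4. Among 32851 mouse promoters of the same length, 29.8% held a GATA word, 35.7% a GC box, 37.4% a CCAAT box, 20.4% an E-box, 13.6% a TATA box and 1.79% the letters TGACGTCA. These matches describe the letters of each window and are not binding sites. The GENCODE start of the canonical Hdc transcript lies 301 bases upstream of the RefSeq start, whereas those of Tph1 and Slc18a2 lie 3 and 72 bases from it.

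Total counts ranged from 32643260 to 45324826 per library. Values are given as CPM, counts per 1000000 of a library after TMM scaling, a trimmed mean that sets libraries to a common level, and groups were compared within replicate numbers by edgeR's quasi-likelihood test, with Benjamini-Hochberg adjustment over 14942 tested genes. Mettl3 was lower in 4 of 4 pairs, at 8.89 ± 3.05 CPM (SD, n = 4) against 22.0 ± 7.29 CPM, a log2 fold change of -1.30 (adjusted p = 0.00543, edgeR), although 2308 bases of its exons overlap Tox4 on the other strand. Among 12 mast cell markers, Kit was at 4242 and 4055 CPM and Fcer1a at 2892 and 2602 CPM in Mettl3-RNP and Pulsed, and Tpsab1 was near 0. Cpa3 was lower in 4 of 4 pairs, at 23272 against 30425 CPM (log2 fold change -0.37, adjusted p = 0.0328, and 0.0710 to 0.159 without replicate 2, 3 or 4, edgeR), as was Fcer1g, at 509 against 568 CPM (log2 fold change -0.17, adjusted p = 0.204, edgeR). Of the 11 tested of these markers, 7 had fitted log2 fold changes above 0 and 4 below, with a median of 0.13. The 12 markers summed to 38868 to 54680 CPM in Mettl3-RNP and 43852 to 61564 CPM in Pulsed, and Cpa3 was the largest part. The neutrophil markers S100a8, S100a9, Elane and Camp had no count in any library, and the 6 macrophage markers summed to 4.82 to 29.1 CPM in Mettl3-RNP and 5.56 to 9.90 CPM in Pulsed. Of these, Adgre1 was lower in 4 of 4 pairs (1.18 against 2.53 CPM, log2 fold change -1.13, adjusted p = 0.0435, edgeR), and Cd68, at 16.7 against 4.50 CPM, was higher in 3 of 4 pairs (log2 fold change 1.63, adjusted p = 0.142, edgeR). Of the 4 basophil markers, Mcpt8, Prss34 and Itga2 stood at 1.88, 0.702 and 0.313 CPM in Mettl3-RNP and at 2.56, 1.13 and 0.544 CPM in Pulsed, each lower in 4 of 4 pairs, as were Slc18a2 and Maob (log2 fold changes -0.42, -0.68 and -0.85, adjusted p 0.267 to 0.333, edgeR). Cd200r3, at 688 and 572 CPM, went the other way and was higher in 4 of 4 pairs (log2 fold change 0.25, adjusted p = 0.151, edgeR). It made up most of the list's sum of 510 to 823 CPM in Mettl3-RNP and 500.3 to 628 CPM in Pulsed. Of all tested genes, 31.7% kept the same direction in 4 of 4 pairs. The 5 erythroid markers summed to 5.49 to 10.7 CPM in Mettl3-RNP and 6.49 to 9.32 CPM in Pulsed, with fitted log2 fold changes of -0.95 for Hba-a1, 0.38 for Epor and 0.18 for Klf1, none past an adjusted p of 0.05 in edgeR. The part of other cell types in the values given here was not tested.

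The first question was how much of each transcript these BMMCs held, in cultures that differed widely in stimulation genes, as given below. Tph1 was by far the most abundant of the 8, whereas Ddc, which acts on its product, was at percentile 26.8 of the tested genes in Pulsed cells. Levels of different genes were compared per length as TPM, counts per base of the canonical transcript scaled to 1000000 per library. In Pulsed cells Tph1 stood at 4107 ± 104 TPM (SD, n = 4), rank 22 of all genes. Slc18a2 followed at 736 ± 288 TPM, rank 183, and Maob at 537 ± 150 TPM, rank 237. Hdc was lower than these at 156 ± 54.6 TPM, rank 902. The remaining 4 formed a low group, with Ddc at 2.57 ± 1.38 TPM, Slc6a4 at 1.01 ± 0.920 TPM, Maoa at 0.519 ± 0.129 TPM and Hnmt at 0.0413 ± 0.0826 TPM. The means of the Mettl3-RNP group fell in the same order, from 3991 ± 554 TPM for Tph1 and 611 ± 224 TPM for Slc18a2 to 0.143 ± 0.119 TPM for Hnmt. Lengths of merged exons in place of the canonical transcript gave the same order of the Pulsed means.

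**Figure D1:**
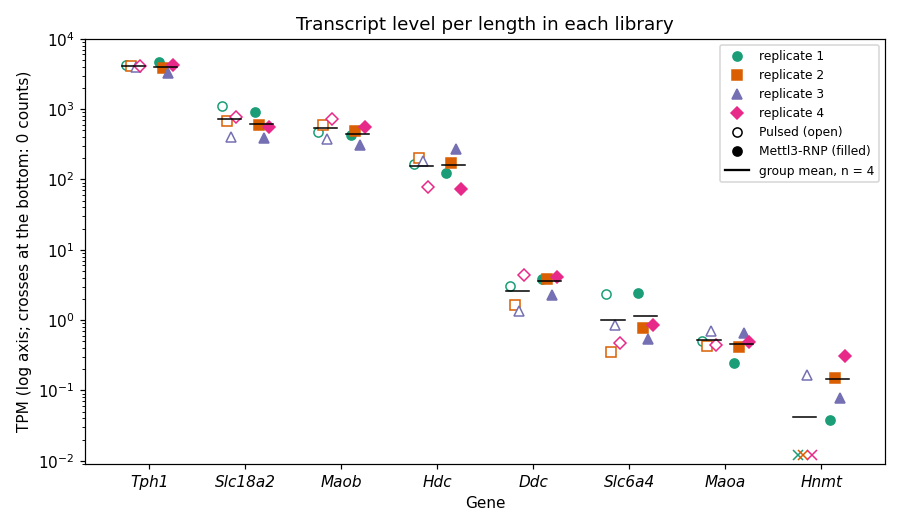
Level per length (TPM, log axis) of the 8 genes in each of the 8 libraries, with open symbols for Pulsed, filled symbols for Mettl3-RNP, a shape for each replicate number and a bar for the mean of 4. Tph1, Slc18a2, Maob and Hdc lie above 70 TPM in every library and Ddc, Slc6a4, Maoa and Hnmt below 5 TPM, with crosses for the 3 Pulsed libraries in which Hnmt had no count.

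Neighbours in this order were not equally distinct. Tph1 exceeded Slc18a2 by 3.82- to 9.86-fold within a library. Slc18a2 exceeded Maob in 7 of 8 libraries, with a ratio of 0.973 in Mettl3-RNP 4, and the ranges of these 2 transcripts over the Pulsed libraries overlapped. Maob exceeded Hdc in 8 of 8 libraries, but only by 1.12-fold in Mettl3-RNP 3 against 9.24-fold in Pulsed 4. Ddc exceeded Slc6a4 in 8 of 8 libraries and Slc6a4 exceeded Maoa in 6 of 8, and in both cases the Pulsed ranges overlapped. The distance between the enzymes of one path was much wider. Tph1 exceeded Ddc by 967- to 2995-fold, and Maob exceeded Maoa by 469- to 1772-fold, in every library. Tph1 also exceeded Hdc, the entry to histamine, by 12.2- to 56.4-fold.

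The next question was whether the synthesis enzymes differed between Mettl3-RNP and Pulsed cells. Hdc, Tph1 and Ddc did not pass the threshold, which asked for both an adjusted p not above 0.05 and a change by 1.5-fold or more. Hdc (chr2:126435558-126461318, minus strand, 12 exons) stood at 124, 189, 338 and 78.7 CPM in Mettl3-RNP 1 to 4 and at 171, 237, 234 and 85.3 CPM in Pulsed 1 to 4. It was lower with the RNPs in pairs 1, 2 and 4 and higher in pair 3. The groups overlapped, with Mettl3-RNP 3 above and Mettl3-RNP 4 below every Pulsed library. The log2 fold change was -0.10 (SE 0.151, 95% interval -0.45 to 0.25, adjusted p = 0.767, edgeR), and it was -0.31 (adjusted p = 0.113) without replicate 3.

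Tph1 (chr7:46294065-46321965, minus strand, 11 exons) stood at 7322, 6596, 6444 and 6939 CPM in Mettl3-RNP 1 to 4 and at 6864, 7489, 8002 and 7159 CPM in Pulsed. Every library lay within a narrow band, with Mettl3-RNP 1 above its partner and the other pairs the other way. Its log2 fold change was -0.11 (SE 0.0840, 95% interval -0.31 to 0.083, adjusted p = 0.489, edgeR). The interval on the linear scale, 0.809- to 1.06-fold, held no change as large as 1.5-fold in either direction.

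Ddc (chr11:11762602-11848150, minus strand, 15 exons) stood at 5.09, 5.51, 3.68 and 5.67 CPM in Mettl3-RNP 1 to 4 and at 4.11, 2.45, 2.21 and 6.13 CPM in Pulsed. It was higher with the RNPs in 3 of 4 pairs, most in pair 2 (1.15 on the log2 scale), and the highest library of all was Pulsed 4. Its log2 fold change was 0.51 (SE 0.217, 95% interval 0.0079 to 1.01), with an adjusted p of 0.216 in edgeR's test over all genes. The gene shares 421 bases of exon with 1700042O10Rik on the other strand, which stood at 2.00 and 1.48 CPM, and reads of the 2 cannot be told apart if strand was not used in counting.

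Storage and uptake were compared in the same way. Slc18a2, the transporter that loads amines into granules, was the lower with the RNPs in every pair, without passing the threshold. Slc18a2 (chr19:59249238-59284695, plus strand, 16 exons) stood at 1413, 985, 724 and 884 CPM in Mettl3-RNP 1 to 4 and at 1741, 1187, 787 and 1292 CPM in Pulsed. The pair differences were -0.30, -0.27, -0.12 and -0.55 on the log2 scale, yet the groups overlapped, and culture 1 was the highest of each. The log2 fold change was -0.31 (SE 0.0841, 95% interval -0.50 to -0.12), or 0.807-fold, with an adjusted p of 0.0812 in edgeR. DESeq2 gave -0.30 with an adjusted p of 0.0173, still short of a 1.5-fold change. An exact sign-flip permutation test of the 4 pair differences gave p = 0.125 (two-sided), the smallest that 4 pairs allow. Pdzd8 and Gm29261 on the other strand together share 586 bases of exon with Slc18a2. They stood at 95.7 and 84.1 CPM and at 0.493 and 0.771 CPM in Mettl3-RNP and Pulsed.

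Slc6a4, the serotonin transporter of the plasma membrane (chr11:76888903-76923169, plus strand, 14 exons), was expressed at a low level. It stood at 2.93, 1.00, 0.803 and 1.08 CPM in Mettl3-RNP 1 to 4 and at 2.95, 0.496, 1.32 and 0.630 CPM in Pulsed. Both libraries of culture 1 were the highest of their group, and the remaining pairs pointed both ways. The fit gave a log2 fold change of 0.25 (SE 0.355, adjusted p = 0.738, edgeR), with a 95% interval of 0.672- to 2.10-fold, which includes changes of 1.5-fold in the upward direction.

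Of the breakdown enzymes, Maob came closest to the threshold. Maob, the monoamine oxidase B of the outer mitochondrial membrane (chrX:16574807-16683686, minus strand, 15 exons), stood at 394, 482, 342 and 541 CPM in Mettl3-RNP 1 to 4 and at 442, 625, 434 and 711 CPM in Pulsed. It was lower with the RNPs in 4 of 4 pairs, by -0.17, -0.37, -0.34 and -0.39 on the log2 scale, while the 2 groups overlapped. The log2 fold change was -0.32 (SE 0.0707, 95% interval -0.48 to -0.16, adjusted p = 0.0522, edgeR). The fold change of 0.801 had an interval of 0.715 to 0.898, which lies wholly on the side of a decrease and does not reach 1.5-fold. DESeq2 and limma-voom gave adjusted p of 0.00353 and 0.0447 with log2 fold changes of -0.31 and -0.32, and leaving out single pairs gave adjusted p of 0.0797 to 0.372 in edgeR.

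Maoa, the neighbouring oxidase (chrX:16485893-16554057, plus strand, 15 exons), ends 20749 bases from Maob, and both genes are transcribed toward the space between them. It stood at 0.377, 0.701, 1.24 and 0.798 CPM in Mettl3-RNP 1 to 4 and at 0.816, 0.757, 1.39 and 0.739 CPM in Pulsed. Pair 1 differed most, by -1.01 on the log2 scale, and the groups overlapped. The fit gave a log2 fold change of -0.30 (SE 0.373, adjusted p = 0.692, edgeR), with an interval of 0.446- to 1.47-fold. Its point estimate was close to that of Maob, but its interval includes no change.

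Hnmt, which methylates histamine inside cells (chr2:23892668-23939872, minus strand, 6 exons), had 1, 5, 2 and 8 counts in Mettl3-RNP 1 to 4 and 0, 0, 6 and 0 counts in Pulsed. These counts, 16 and 6 in all, were too few for the filter on low counts, and the gene was not tested. A count of 0 in Pulsed 1, 2 and 4 allows levels of up to 0.0843, 0.0783 and 0.0821 CPM, for counting error only.

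Counted together, 0 of the 7 tested genes passed the threshold, where 2.06% of all tested genes did. At an adjusted p of 0.05 or less alone, 0 of 7 passed against 3.74% of all tested genes. At an unadjusted p under 0.05, 3 of 7 passed (Maob, Slc18a2 and Ddc), against 22.5% of all tested genes. The direction was the same in 4 of 4 pairs for 2 of 7 (Slc18a2 and Maob), close to the 31.7% of all tested genes. The groups did not overlap in CPM for 0 of 7, against 3.23%. The median log2 fold change of the 7 was -0.11, beside -0.0013 over all tested genes. All 8 transcripts together made up 0.719% to 0.975% of the counts of a library, most of them Tph1.

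**Figure D2:**
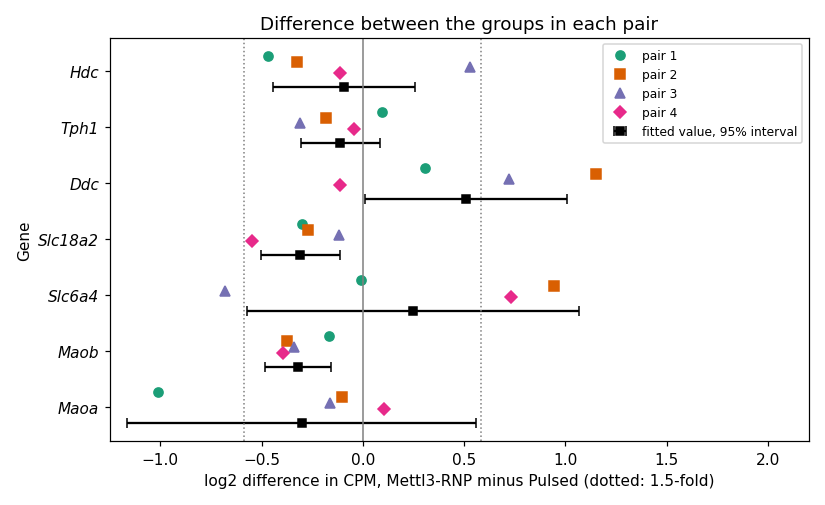
Difference in log2 CPM between Mettl3-RNP and Pulsed for each pair (colored symbols) and the fitted log2 fold change with its 95% interval (black) for the 7 tested genes, with dotted lines at 1.5-fold. All 4 pairs of Slc18a2 and Maob lie left of 0, and the intervals of Slc6a4 and Maoa are the widest.

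The transcripts were then compared between the 4 cultures. In edgeR's test between replicate numbers, 4 of 7 (Hdc, Slc18a2, Maob and Slc6a4) passed an adjusted p of 0.05, near the 53.9% of all tested genes, and Ddc, Maoa and Tph1 did not. Hdc varied by 3.43-fold between the culture means, highest in culture 3 and lowest in culture 4 (adjusted p = 0.00139, edgeR). Slc18a2 varied by 2.08-fold with another order, highest in culture 1 and lowest in culture 3 (adjusted p = 0.00124, edgeR). Maob varied by 1.61-fold, highest in culture 4 and lowest in culture 3 (adjusted p = 0.00207, edgeR). Slc6a4 varied by 3.93-fold with its peak in culture 1 (adjusted p = 0.0215, edgeR), a call that was lost without replicate 1 (adjusted p = 0.785). Ddc varied by 2.05-fold (adjusted p = 0.0759) and Maoa by 2.23-fold (adjusted p = 0.270), neither past 0.05 in the main edgeR fit. Ddc was past it in other settings, given below.

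Averaged over the 2 libraries of each culture, Tph1 had a spread of 1.02-fold between its highest and lowest culture (adjusted p = 0.993, edgeR). The median over all tested genes was 1.83-fold, and 1.58-fold over the 8504 that averaged 10 CPM or more. Under TMM scaling this was the second smallest spread of 14942 genes, rank 2, and it was also rank 2 with RLE size factors. With library size alone the spread of Tph1 was 1.15-fold, rank 506, and culture 1 was the highest. Of the sum of squares of log2 CPM over the 8 libraries, 91.9% lay between replicate numbers for Hdc, 82.3% for Slc18a2, 74.1% for Maob and 1.58% for Tph1. The group, with 1 degree of freedom against 3, accounted for 0.463%, 14.2%, 24.0% and 34.7% in the same order. The remainder, for Tph1 the largest part, lay in pair differences that were unlike one another. Culture 3 held both the lowest library of Tph1 (Mettl3-RNP 3, 6444 CPM) and the highest (Pulsed 3, 8002 CPM), which its culture mean hides.

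The order of Hdc over the cultures went along with a set of stimulation genes. The 14 immediate early genes of a list for stimulated mast cells, among them Fos, Egr1 and Nr4a1, had medians of 5.28, 7.94, 9.81 and 2.14 log2 CPM in Mettl3-RNP 1 to 4 and of 6.13, 7.17, 9.51 and 1.71 log2 CPM in Pulsed. In the Mettl3-RNP libraries Hdc stood lowest in culture 4 and then higher in cultures 1, 2 and 3, the order of these medians. In the Pulsed libraries cultures 4 and 1 came in that order too, while cultures 2 and 3 held nearly equal Hdc, at 237 and 234 CPM. Slc18a2, Ddc and Maob were each lowest in culture 3. Culture 3 also had the lowest TMM factors, 0.917 and 0.889. With RLE size factors and with library size alone, Hdc still varied by 3.34- and 2.97-fold, highest in culture 3 and lowest in culture 4. Slc18a2 varied by 2.10- and 2.42-fold and Maob by 1.65- and 1.86-fold under these scalings, each lowest in culture 3. Stimulation and donor cannot be told apart with 1 pair per culture.

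**Figure D3:**
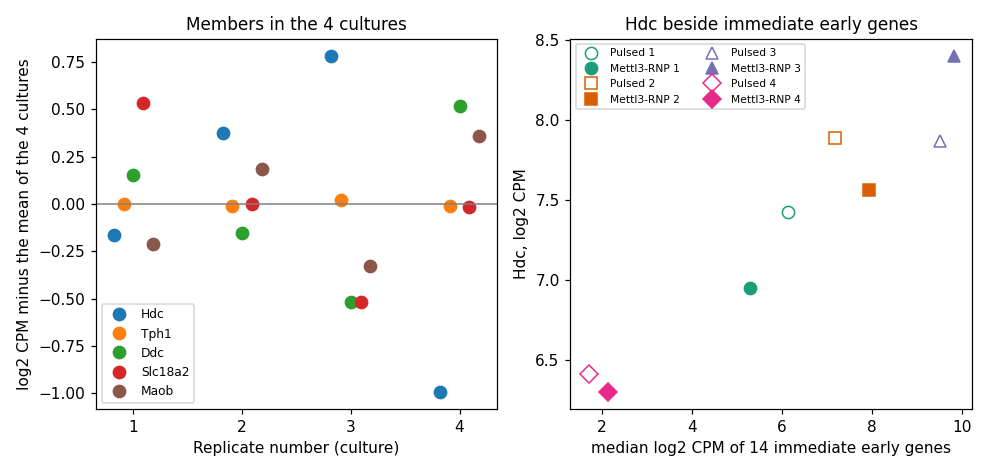
Left, log2 CPM of 5 genes as culture means (average of the 2 libraries of a replicate number) minus their mean over the 4 cultures, with symbols offset sideways. Right, Hdc in log2 CPM against the median log2 CPM of 14 immediate early genes in each library. Hdc spans 3.43-fold and Tph1 1.02-fold, and both libraries of culture 4 lie lowest and those of cultures 2 and 3 highest for Hdc.

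The other genes that serve these amines were taken from a list of 84, of which 83 were found in the tables and 50 were tested. None passed the threshold, against 2.06% of all tested genes, and 1 (Tcirg1, a subunit of the proton pump) passed an adjusted p of 0.05 in edgeR, against 3.74%. At an unadjusted p under 0.05 there were 5 higher and 3 lower of 50, against 22.5% of all tested genes. The direction was the same in 4 of 4 pairs for 16 of 50, close to the 31.7% of all tested genes. The fitted log2 fold changes were split, with 24 above 0, 26 below and a median of -0.013. Between replicate numbers 28 of 50 (56.0%) differed at an adjusted p of 0.05 or less, close to the share of all tested genes. Of the 33 not tested, 8 had no count in any library (Th, Dbh, Slc22a2, Aoc1, Ido1, Hrh3, Htr1f and Htr3b), which over all libraries together allows up to 0.0101 CPM, and the others had means of at most 0.517 CPM.

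All 10 genes of cofactor supply were tested, at levels down to 0.432 and 0.297 CPM for Pcbd1. Gch1, the first enzyme of tetrahydrobiopterin synthesis, which Tph1 needs, stood at 158 and 149 CPM in Mettl3-RNP and Pulsed. Spr, the last enzyme of that path, was at 19.9 and 15.4 CPM, higher in 4 of 4 pairs with a log2 fold change of 0.37 (adjusted p = 0.0812, edgeR). Pdxk, which makes the pyridoxal phosphate that both decarboxylases need, was at 143 and 173 CPM with a log2 fold change of -0.26 (adjusted p = 0.126, edgeR) and differed by 4.04-fold between cultures.

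The granule matrix and the pump that drives Slc18a2 were abundant. Serglycin (Srgn), the proteoglycan core that binds amines, stood at 3303 and 3248 CPM, and Ndst2, which sulfates its heparin chains, at 554 and 505 CPM. Of 18 tested genes of the vesicular proton pump, 6 had fitted values above 0 and 12 below. Tcirg1 was higher in 4 of 4 pairs, from 37.2 CPM in Pulsed, with a log2 fold change of 0.46 (adjusted p = 0.0474, edgeR), and the adjusted p was 0.0934 to 0.199 without replicate 2, 3 or 4. Its paralog Atp6v0a1 had a log2 fold change of 0.22 (adjusted p = 0.122) and Atp6v0d1 one of -0.20 (adjusted p = 0.131), neither past the threshold in edgeR.

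Other breakdown enzymes included Aldh2, which oxidizes the aldehydes left by the monoamine oxidases, at 950 and 936 CPM, and Akr1a1, an aldehyde reductase, at 348 and 404 CPM (log2 fold change -0.23, adjusted p = 0.163, edgeR). Of the histamine receptors, Hrh2 stood at 29.4 and 24.7 CPM (log2 fold change 0.27, adjusted p = 0.0891, edgeR) and Hrh4 at 25.5 and 28.9 CPM (log2 fold change -0.20, adjusted p = 0.244). Hrh4 varied by 11.04-fold between cultures (adjusted p = 3.8e-05, edgeR). The 14 serotonin receptors were near 0, and their summed level reached 6.81 CPM at most, in Pulsed 3. Gata2 and Mitf, transcription factors known for their part in Hdc transcription and mast cell identity, stood at 2423 and 2251 CPM and at 164 and 133 CPM. Mitf was higher in 4 of 4 pairs with a log2 fold change of 0.30 (adjusted p = 0.0709), and Gata2 had one of 0.13 (adjusted p = 0.457, edgeR).

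**Figure D4:**
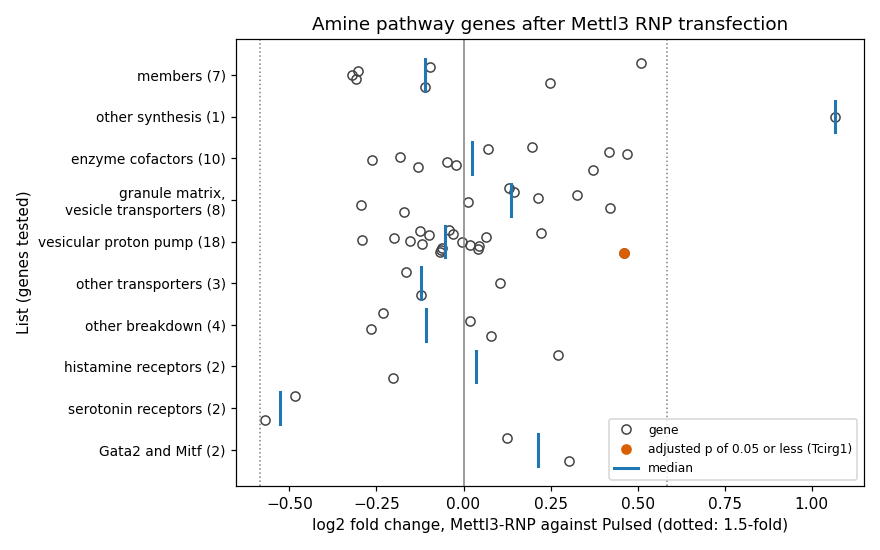
Fitted log2 fold changes of the 7 tested genes and of 50 other genes of the amine pathways, by function, with a blue bar at the median of each group and dotted lines at 1.5-fold. Tcirg1 (filled) is the single gene with an adjusted p of 0.05 or less, and the gene right of the dotted line, Tph2, stood at 1.08 and 0.509 CPM (adjusted p = 0.525, edgeR).

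The profile of each gene over the 8 libraries was set against those of the tested genes averaging 10 CPM or more. The closest by Pearson correlation of log2 CPM were Acot9 (0.984), Snhg8 and Tmem64 for Hdc, and Tspan31 (0.989), Gm56758 and Ints11 for Slc18a2. For Maob they included Prmt7 (0.974) and Exosc7, and for Tph1 they were Pabpc1 (0.914), Norad and Atxn2l. For the genes of low level they were Decr2, Naif1 and Eri2 for Ddc, Sp100, Gcnt1 and Vash1 for Slc6a4, and Abhd12, Ggh and Mdn1 for Maoa. These values describe 8 libraries that share 4 cultures, and the highest of 8503 values is high by selection.

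The transcripts were also compared in features of their sequence, in view of the m6A motif GGACT that the Mettl3 complex favors. The canonical Hdc transcript held 5 GGACT motifs, or 1.84 per 1000 bases, above 86.9% of 12023 tested protein-coding genes, whose median was 1.04. Tph1 held 7 (1.65 per 1000 bases), Slc18a2 held 6 (1.45 per 1000 bases) and Maob held 2 (0.814 per 1000 bases). Maoa held 6 (1.44 per 1000 bases), Ddc 4 (1.14 per 1000 bases), Slc6a4 3 (0.918 per 1000 bases) and Hnmt 1 (0.525 per 1000 bases). Maob, Slc6a4 and Hnmt lay below the median. A motif is not a measured methylation, and no methylation was measured in these libraries.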

How the data were processed

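RNA of 8 BMMC libraries, 4 Mettl3-RNP and 4 Pulsed, was analyzed as deposited. The authors deposited raw counts per Ensembl gene as whole numbers, obtained by aligning reads to GRCm39 with HISAT2 2.2.1 and counting with featureCounts 2.0.1, after quality control with FastQC 0.11.9. These versions are from the submitters' processing notes. Strand and multimapping settings are not given in the sources used here. The study's methods name a batch correction after counting, which the whole-number tables do not show.

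Gene names and positions were taken from GENCODE M39 (GRCm39) for 56017 of 56748 identifiers (98.7%), and identifiers without a name held at most 0.113% of a library. Genes kept by filterByExpr (14942) were fitted with edgeR 4.0.16 (glmQLFit, glmQLFTest, TMM) in R 4.3.3, with group and replicate number as terms and Benjamini-Hochberg adjustment. The threshold asked for an adjusted p not above 0.05 and a change by 1.5-fold or more. Log2 CPM used a prior count of 2. Standard errors and 95% intervals came from the test statistic and are not adjusted for the number of genes. Intervals and limits cover the spread between these libraries or counting error only, and PCR copies were not marked by molecular identifiers. Replicates of a group differed by at least 52.6 in chi-square per degree of freedom and were each counted once.

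The replicate number was used as a block because the series text names 4 mice behind 8 samples and the labels number both groups from 1 to 4. Deviations from the group means of same-numbered libraries correlated across 11985 genes with r of 0.825, 0.489, 0.879 and 0.765, against at most 0.183 for different numbers. The labels do not say that a number is a mouse.

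Alternatives were DESeq2 1.42.0, limma 3.58.1 (voom, and removeBatchEffect before limma-trend), RLE or no scaling factors, no filter on low counts, no replicate block, leaving out each pair, no limit on the fold change, and another spread estimate of edgeR that was chosen after seeing the data. The test scripts were tested on simulated counts. The text names the 8 genes, Mettl3, markers, other amine genes with an unadjusted p under 0.05 or at least 50 CPM, and the 3 closest profiles of each tested gene, of which 1 is not reported here. Tph2, Hrh4 and Pcbd1 meet neither limit and were named, and untested amine genes with no count were listed, after their values were seen. The genes and lists were chosen with earlier results of these data known. Promoters came from RefSeq.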

Additional observations from a re-analysis of the deposited data

Results flagged for a closer look

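In 6 of 90 groups of 4 values examined, 1 library stood apart from the other 3 by most of the group's range, where chance gives about 4.5. Slc6a4 in Mettl3-RNP 1 was at 2.93 CPM, with the next library at 1.08 CPM, and its Pulsed partner was at 2.95 CPM. Maoa in Pulsed 3 was at 1.39 CPM, with the next at 0.816 CPM, and its Mettl3-RNP partner at 1.24 CPM was also the highest of its group. Hnmt in Pulsed 3 was at 0.149 CPM with the other 3 at 0. Mettl3 in Pulsed 3 was at 11.2 CPM, below the 24.5 to 26.5 CPM of the other Pulsed libraries. Slc7a5, the carrier of the amino acids from which serotonin is made, was at 49.9 CPM in Mettl3-RNP 1, with the others at 109 to 116 CPM. The TMM factor of Mettl3-RNP 3 was 0.917, with the others from 1.04 to 1.05. The causes were not tested.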

How the results depend on the processing

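Of 132 recomputed values, 117 kept their direction and, for single genes, their side of an adjusted p of 0.05 or, for counts, stayed within 1.5 times the main count, and 0 of the 8 genes passed the threshold under any setting run. Over all tested genes, 308 passed, and the count was 559 with no limit on the fold change (1 rather than 0 of the other amine genes), 505 with DESeq2, 973 with removeBatchEffect before limma-trend, 579 with no filter on low counts and 26 to 331 when single pairs were left out, the lowest without replicate 2. Higher genes made up 62.8% of those with an adjusted p of 0.05 or less, 49.7% with removeBatchEffect and 42.3% without replicate 2, and up to 71.4% with library size alone. Slc18a2 passed an adjusted p of 0.05 with DESeq2 (-0.30) and removeBatchEffect (-0.31), Maob with DESeq2 (-0.31), limma-voom (-0.32), removeBatchEffect (-0.32) and the added edgeR estimate of the spread (-0.32), and Ddc with removeBatchEffect (0.52, adjusted p = 0.0455). Removing the batch before the fit leaves its degrees of freedom uncounted, so that fit gives smaller p-values by construction. Without the replicate block no gene passed in edgeR (579 at an unadjusted p under 0.05, smallest adjusted p 0.427), and the log2 fold change of Hdc turned from -0.10 to 0.0043. The other causes were not tested. Leaving out single pairs gave log2 fold changes of -0.31 to -0.0049 for Hdc, -0.22 to -0.048 for Tph1, 0.29 to 0.74 for Ddc, -0.38 to -0.22 for Slc18a2, 0.00011 to 0.55 for Slc6a4, -0.44 to -0.094 for Maoa and -0.41 to -0.28 for Maob. Between replicate numbers 4 or 5 genes passed in each setting. Ddc was added with DESeq2 (adjusted p = 0.0492), and in edgeR with library size alone (0.0471) and with no filter on low counts (0.000904). In edgeR it also passed without replicate 1 (adjusted p = 0.0492), where Slc6a4 did not, and without replicate 2 (0.0268). Hnmt could be fitted only with no filter on low counts.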

Other observations

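Both monoamine oxidase genes lie on the X chromosome. Xist, the RNA of the inactive X, was present in all 8 libraries, at a mean of 988 CPM in Mettl3-RNP and 1332 CPM in Pulsed, and Ddx3y, Eif2s3y and Kdm5d of the Y chromosome had no count in any. Xist was lower with the RNPs in 4 of 4 pairs (log2 fold change -0.45, adjusted p = 0.0559, edgeR's quasi-likelihood test). The adjusted p of Cpa3, the carboxypeptidase stored with amines in the granule, was 0.0328 with all pairs, but it was 0.159, 0.0710 and 0.109 without replicate 2, 3 and 4, and 0.106 with another edgeR estimate of the spread, chosen after seeing the data. Itga2b, an integrin of platelets and of mast cells, was at 1985 and 1756 CPM, while the platelet genes Pf4 and Ppbp, whose cells carry serotonin taken up by Slc6a4, were at 0.280 and 0.233 CPM and at 0.00836 and 0 CPM.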
